A study of Rattus norvegicus with 24 samples.

Results

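The comparison described here sets liver constructs sampled on day 2 of culture against cadaveric rat liver. It rests on 8 of the 19 samples of the study (10 of its 24 arrays), chosen by their labels as 4 day 2 constructs and 4 cadaveric livers. All animals were Sprague Dawley rats. The livers (day 0) were sampled without cell isolation or culture. For the constructs, liver cells were released with collagenase, enriched for viable cells on Percoll and perfused through the portal vein into caudate lobes of decellularized rat liver. They were then perfused with Williams' Medium E containing 10% fetal bovine serum, 10 µg/mL insulin and 1 µM dexamethasone, oxygenated with carbogen, until a biopsy was taken on day 2. A construct therefore holds only those cells that came through isolation, Percoll and seeding, and each biopsy was measured whole. The paper describes many dying cells in such constructs at this time point, and a few necrotic regions away from the large vessels. RNA of dying cells may therefore be part of the construct values, and its share was not tested. The sex of the donors is not stated, and the labels do not say whether the replicates came from separate donors, so the p-values cover only the spread between samples within the 5 groups fitted together, which may be technical. RNA was hybridized to RatRef-12 BeadChips, on which beads carry probes for rat genes and brightness reports the amount of RNA. The study also profiled freshly isolated liver cells and later constructs.

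The liver is built mainly of hepatocytes, which make bile acids, urea, glucose, lipoproteins and most plasma proteins and which break down amino acids, drugs and hormones. Around them lie Kupffer cells (resident macrophages), sinusoidal endothelial cells, stellate cells, cholangiocytes of the bile ducts, lymphocytes and blood. Isolated hepatocytes lose blood flow, hormones and neighbours, and in culture they are known to lose part of their metabolic program while they take on features of stressed and repairing tissue. Genes are therefore described below by cell type and by pathway.

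Of 13337 genes named on the array, 8825 were detected in at least 3 samples of the study and tested. With limma and a Benjamini-Hochberg adjusted p under 0.05, 3043 genes (34.5%) were higher in day 2 constructs and 2301 (26.1%) were lower, so that 60.6% of all genes tested were called. A difference of at least 2-fold was seen for 945 genes (10.7%) that were higher and for 1141 (12.9%) that were lower. The median log2 difference over all genes was 0.07. The values of the 4 livers and the 4 constructs did not overlap for 5012 genes (56.8%). Lack of overlap was also a condition for naming the 15 largest increases and decreases. The balance of these counts depended on scaling: of the calls, 56.9% were higher with the deposited quantile normalized values and 71.2% were higher when the arrays were scaled to equal medians, where the median of all genes was 0.25. Of the genes called, 230 (2.61% of those tested) were higher with no liver array above background and 401 (4.54%) were lower with no construct array above background, and their folds are lower bounds. In the sections below, higher and lower are used only of genes called in this fit, and levels are log2 intensities, whose scale ended at 14.96 on every array. Counts for a list are to be read against the shares of all genes, 34.5% higher and 26.1% lower. Because tissue was measured in bulk, fewer cells of a type and less RNA per cell cannot be told apart.

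The arrays of both groups detected similar shares of probes. Between 45.9% and 48.6% of probes were above background on the liver arrays, and between 45.4% and 47% on the construct arrays. Across all genes tested, Pearson's r between samples was 0.985 to 0.989 among livers, 0.990 to 0.995 among constructs and 0.867 to 0.887 between a liver and a construct. These are correlations of quantile normalized values across genes, which are not independent replicates.

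**Figure D1:**
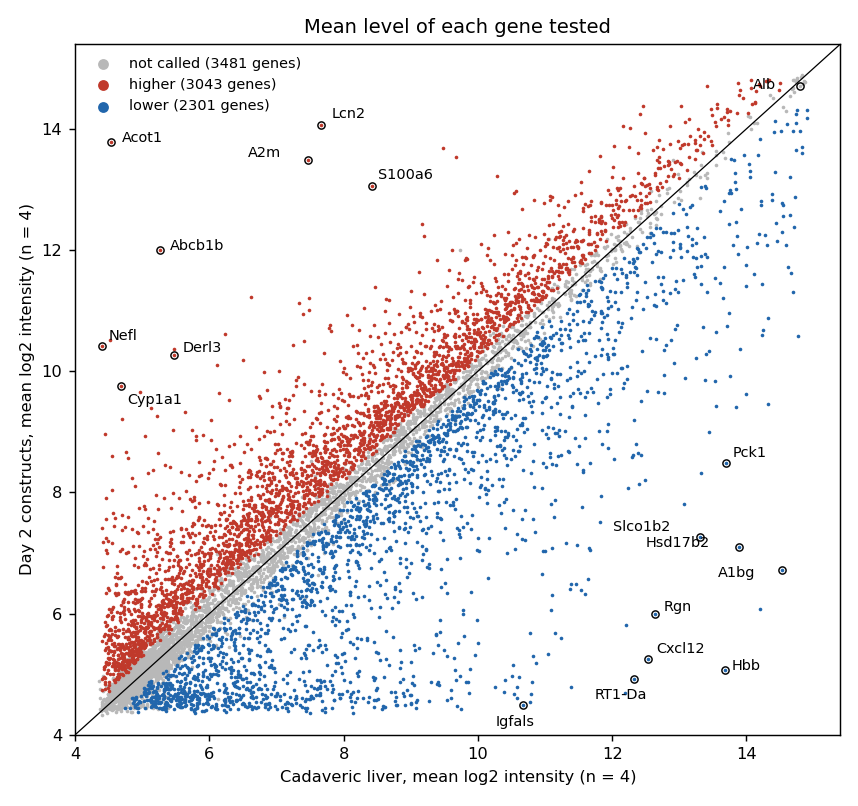
Mean log2 intensity of each of 8825 genes in cadaveric liver (x axis) and in day 2 constructs (y axis), with 4 samples in each mean, coloured by the call (adjusted p under 0.05). The line marks equal levels. Acot1 and Lcn2 lie far above it, Hbb, A1bg and Cxcl12 far below it, and Alb on it near the top of the scale.

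The largest increase was that of Acot1, a cytosolic acyl-CoA thioesterase that is a known target of the fatty acid receptor PPARα. Acot1 was at 4.49, 4.56, 4.48 and 4.62 in the 4 livers and at 14.05, 13.57, 14 and 13.51 in the 4 constructs. It was not above background on any liver array and was at least 442-fold higher in the constructs (means 4.54 and 13.78, adjusted p = 6.64e-16). Abcb1b, an efflux pump of the bile canaliculus, followed. In livers Abcb1b stood at 4.56, 4.56, 5.10 and 6.83, and in constructs at 12.27, 11.69, 12.30 and 11.74. The construct values lay close together and far above all 4 livers, of which replicate 4 was the brightest, and 2 of 4 liver arrays detected the gene (log2 difference 6.74 ± 0.37, 107-fold, adjusted p = 3.53e-11).

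In replicate order, Lcn2 measured 7.83, 7.72, 8.31 and 6.82 in livers and 14.57, 14.46, 13.75 and 13.49 in constructs. Lipocalin 2 binds bacterial siderophores and is secreted in inflammation, and the groups did not overlap (log2 difference 6.40 ± 0.45, 84.6-fold, adjusted p = 7.68e-10). Levels of A2m were 6.48, 8.97, 6.90 and 7.52 in livers and 13.88, 13.49, 13.40 and 13.19 in constructs. Alpha-2-macroglobulin, a protease inhibitor and a major acute phase protein of the rat, was also fully separated between the groups, with most of its spread among the livers (log2 difference 6.02 ± 0.44, 64.9-fold, adjusted p = 1.51e-09). The decoy receptor of interleukin 1, Il1r2, had a log2 difference of 4.52 ± 0.31, with 1 of 4 liver arrays above background. Tnfrsf12a, the receptor of the cytokine TWEAK, had a difference of 4.60 ± 0.21, and its 4 construct values (11.23, 10.83, 11.49 and 11.33) all lay above 4 tightly grouped liver values (6.78, 6.41, 6.70 and 6.57).

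Several genes best known from other organs were among the 15 largest increases. Nefl, the light neurofilament of neurons, was at least 43-fold higher (means 4.39 and 10.42, adjusted p = 1.16e-10). Defb1, an antimicrobial peptide of epithelia, was at least 45.9-fold higher (means 4.52 and 10.52, adjusted p = 7.60e-13). Pbsn, a lipocalin known as a secreted protein of the prostate, was at least 15.6-fold higher (means 4.44 and 8.96, adjusted p = 1.36e-09). None of these genes was above background on a liver array, and each was detected on all 6 construct arrays. Adgrg2, an adhesion receptor known from the epididymis, and Cdr2, known as a tumour antigen in cerebellar degeneration, had differences of 4.26 ± 0.21 (2 of 4 liver arrays above background) and 4.68 ± 0.18 (1 of 4 liver arrays above background). S100a6, a calcium binding protein, had a difference of 4.63 ± 0.32, and in freshly isolated liver cells its mean level was 4.69 ± 0.08 against 8.41 ± 0.47 in liver and 13.05 ± 0.42 in the constructs (SD, n = 4).

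**Figure D2:**
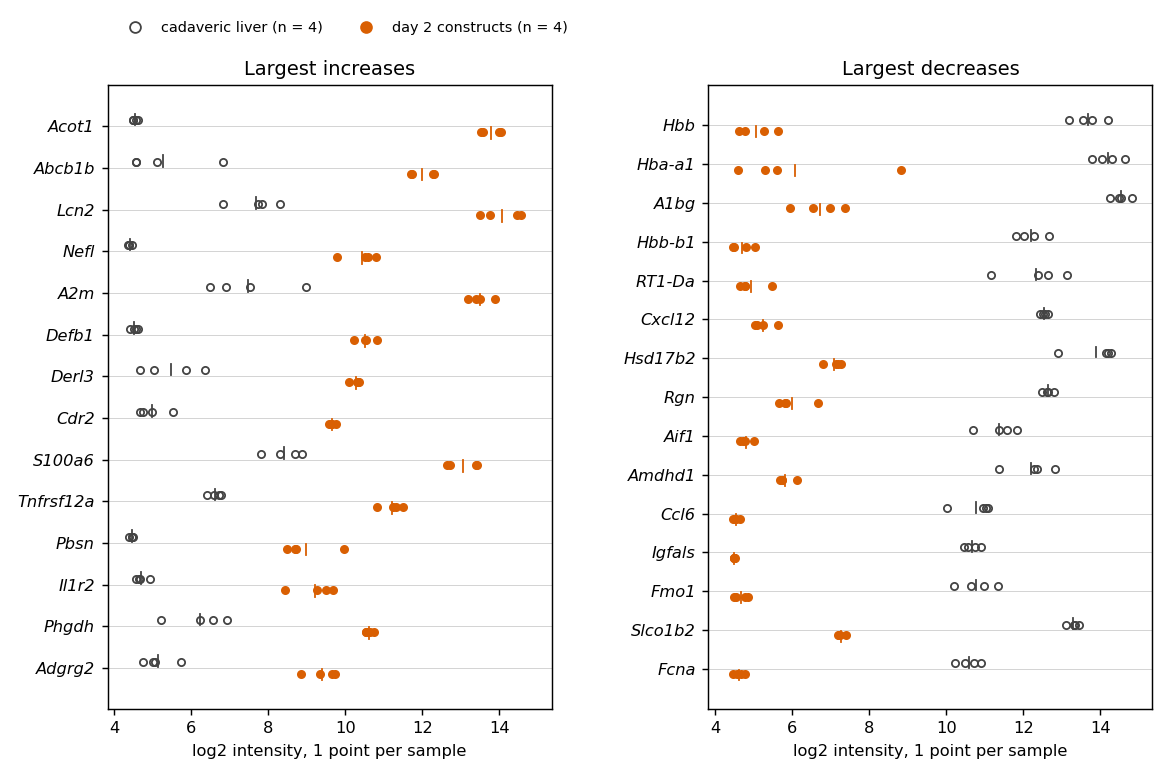
Log2 intensity (x axis) of 14 of the 15 genes with the largest increase (left) and the 15 with the largest decrease (right), with 1 point per sample and a tick at each group mean; open points are the 4 cadaveric livers and filled points the 4 day 2 constructs. The groups do not overlap for any of these genes, which was a condition for naming them, and a single construct stands apart for Hba-a1 at 8.83.

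Derl3 and Phgdh, also among the 15 largest increases, belong to the response to stress in the endoplasmic reticulum and to amino acid shortage. In this response, unfolded proteins in the reticulum lead to the synthesis of chaperones and of proteins that clear misfolded chains, while the transcription factor ATF4 drives amino acid synthesis and uptake. Of 37 genes tested in the list, 32 (86.5%, against 34.5% of all genes) were higher and 1 was lower, with a median log2 difference of 1.01 against 0.07 over all genes. The gene that was lower was Xbp1, a transcription factor of the response, at -0.42 ± 0.15 and not called without liver replicate 2 or construct replicate 3 (-0.38 in both), and those not called were Sel1l (0.18), Shmt2 (0.15), Slc7a5 (0.09) and Eif2ak3 (-0.18). Under scaling to equal medians Xbp1 was at -0.18 and not called, while Sel1l, Shmt2 and Slc7a5 were higher, at 0.63, 0.63 and 0.42.

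Constructs showed 10.32, 10.36, 10.29 and 10.11 for Derl3, against 6.34, 4.68, 5.86 and 5.03 in livers. Derlin 3 helps to move misfolded proteins out of the reticulum, and its construct values lay close together while the livers spread widely below them (log2 difference 4.79 ± 0.42, 27.7-fold, adjusted p = 1.54e-08, 3 of 4 liver arrays above background). Phgdh was at 5.22, 6.57, 6.23 and 6.91 in the 4 livers and at 10.65, 10.75, 10.53 and 10.53 in the 4 constructs. This gene encodes the enzyme that opens serine synthesis, and the groups were again apart (log2 difference 4.38 ± 0.24, 20.9-fold, adjusted p = 3.95e-11). In livers Asns stood at 4.40, 4.60, 5.25 and 5.13, and in constructs at 8.53, 8.25, 8.02 and 8.16. Asparagine synthetase, a classical ATF4 target, was detected on 2 of 4 liver arrays and on all construct arrays (log2 difference 3.39 ± 0.17, 10.5-fold, adjusted p = 8.98e-12). Psph, the last enzyme of serine synthesis, had a difference of 1.47 ± 0.11, and Slc3a2, the heavy chain of amino acid exchangers, one of 2.42 ± 0.13.

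Promoters of genes in this group are shown because some of them, though not most, hold the endoplasmic reticulum stress response element (CCAAT, 9 bases of any kind, then CCACG), the only motif searched. In the 250 bases before each gene start, on either strand, the element was present in 8 of 33 tested genes of the list that have a promoter in the RefSeq table (24.2%), in 14 of 7332 of all tested genes (0.191%) and in 22 of 33469 of all promoters in the table (0.0657%). It was found in none of 28 genes of the heat shock list. The element is named for this stress response and the list was put together for the same response. The higher share in the list therefore describes the choice of genes and is not a result of these samples. The 8 genes of the list with the element were Calr, Canx, Creld2, Derl3, Dnajc3, Hsp90b1 and Hspa5, all higher (Calr not without liver replicate 2, at 0.19), and Xbp1, which was lower. Over all tested genes with a promoter, in or outside the list, 9 of 2598 higher, 3 of 1859 lower and 2 of 2875 not called held it. The 4 promoters below, from RefSeq on build GRCr8, run 5′ to 3′ on the strand of the gene, with the element in capitals. They were chosen after the values were seen, and a match is a description and not evidence of binding.
Derl3, chr20:12766466-12766715, minus strand: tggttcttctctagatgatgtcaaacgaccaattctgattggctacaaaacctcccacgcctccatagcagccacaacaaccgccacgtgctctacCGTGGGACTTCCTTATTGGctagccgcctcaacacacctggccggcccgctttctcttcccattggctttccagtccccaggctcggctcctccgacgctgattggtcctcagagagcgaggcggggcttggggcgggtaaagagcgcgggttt
Creld2, chr7:121789134-121789383, plus strand: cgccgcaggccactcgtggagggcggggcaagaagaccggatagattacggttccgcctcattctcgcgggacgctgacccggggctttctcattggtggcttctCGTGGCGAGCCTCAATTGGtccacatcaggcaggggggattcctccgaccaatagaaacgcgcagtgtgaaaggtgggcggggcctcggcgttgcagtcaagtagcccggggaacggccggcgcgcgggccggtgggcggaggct
Hsp90b1, chr7:23012294-23012543, minus strand: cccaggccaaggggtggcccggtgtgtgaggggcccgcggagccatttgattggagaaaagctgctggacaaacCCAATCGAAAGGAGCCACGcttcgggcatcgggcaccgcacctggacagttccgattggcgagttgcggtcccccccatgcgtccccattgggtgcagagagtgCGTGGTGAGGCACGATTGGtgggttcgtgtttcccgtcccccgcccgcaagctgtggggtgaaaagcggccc
Hspa5, chr3:38452766-38453015, plus strand: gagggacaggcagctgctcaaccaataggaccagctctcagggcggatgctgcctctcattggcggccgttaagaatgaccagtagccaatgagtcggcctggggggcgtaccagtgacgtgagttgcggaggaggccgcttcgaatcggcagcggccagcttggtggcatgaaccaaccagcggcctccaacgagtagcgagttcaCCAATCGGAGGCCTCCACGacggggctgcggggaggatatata

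The element ended 135 bases before the start of Derl3 and 126 bases before that of Creld2, on the opposite strand in both. Hsp90b1 held 2 copies, at 157 bases on the strand of the gene and at 53 bases on the other, and Hspa5 held a copy 24 bases from its start. In replicate order, Hspa5 measured 14.03, 13.63, 14.01 and 13.82 in livers and 14.69, 14.72, 14.86 and 14.73 in constructs. BiP, the main chaperone of the reticulum, thus stood near the top of the scale in both groups without overlap (log2 difference 0.88 ± 0.11, 1.84-fold, adjusted p = 2.12e-06). Levels of Creld2 were 10.58, 9.80, 10.30 and 9.84 in livers and 12.21, 12.11, 11.90 and 11.46 in constructs. Creld2, a protein of the reticulum that is induced by stress there, was separated by a wider gap (log2 difference 1.79 ± 0.27, 3.47-fold, adjusted p = 1.55e-05). For Hsp90b1, the chaperone Grp94, the difference was 1.13 ± 0.13. Of the 4 genes shown, Derl3 had the largest difference.

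Genes for chaperones of the cytosol and for the machinery that makes ribosomes were also mostly higher. In the list of heat shock proteins and chaperones, 24 of 33 genes were higher and 2 lower, with a median of 0.85. Those lower were Dnajb1 (-0.48), not called without liver replicate 1 (-0.32), and Dnaja1 (-0.24), not called without any single sample other than liver replicate 2 (-0.27 to -0.16). Under scaling to equal medians neither was called, at -0.11 and -0.03. Constructs showed 11.22, 10.71, 11.19 and 11.38 for Cryab, against 7.08, 6.72, 7.50 and 8.04 in livers. Alpha B-crystallin, a small heat shock protein, was separated between the groups (log2 difference 3.79 ± 0.27, 13.8-fold, adjusted p = 9.08e-10). Cct7 and Cct2, subunits of the chaperonin that folds actin and tubulin, had differences of 1.20 ± 0.09 and 0.94 ± 0.09, and Dnajb4, a cochaperone of Hsp70, one of 1.57 ± 0.16. Hsp90ab1, the constitutive cytosolic Hsp90, was not called, at 0.02.

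Genes of ribosome biogenesis and RNA processing were higher in 48 of 54 cases and lower in 2 (Srsf3 and Hnrnpab, which act in splicing and RNA packaging; Hnrnpab was at -0.33 and not called under scaling to equal medians), with a median of 1.07, the highest of the 38 pathway lists. Nhp2 was at 10.34, 10.38, 10.47 and 10.61 in the 4 livers and at 12.22, 12.27, 12.41 and 12.30 in the 4 constructs. Nhp2 is a core protein of the particles that modify ribosomal RNA, and its values formed tight, distant groups (log2 difference 1.85 ± 0.10, 3.6-fold, adjusted p = 3.30e-11). Nop58, of a related particle, had a difference of 2.02 ± 0.13, and Mrto4 and Bop1, assembly factors of the large subunit, had 2.01 ± 0.11 and 1.78 ± 0.12. Among the cytosolic ribosomal proteins themselves, 52 of 57 were higher and only Rpl15 was lower, with a smaller median of 0.61. In livers Rps3 stood at 12.60, 12.52, 12.71 and 12.60, and in constructs at 13.73, 13.60, 13.63 and 13.66. Rps3, a protein of the small subunit, was separated between the groups (log2 difference 1.05 ± 0.08, 2.07-fold, adjusted p = 1.24e-09). Probes of ribosomal protein genes may also capture transcripts of near-identical pseudogenes.

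Proteasome subunits were higher in 26 of 36 genes and lower in 3 (Psmc6, Psme1 and Psmd9; under scaling to equal medians 1 was lower, with Psme1 at -0.23 and Psmd9 at 0.01, neither called), with a median of 0.44. The base subunit Psmd2 had a difference of 0.83 ± 0.10, the lid subunit Psmd8 1.23 ± 0.15 and the assembly factor Pomp 1.04 ± 0.12. The respiratory chain did not share this direction, as 8 of 53 genes were higher and 14 lower around a median of -0.07. These shares were 15.1% and 26.4%, against 34.5% and 26.1% of all genes. Under scaling to equal medians the median became 0.16, with 22 genes higher and 4 lower. The complex I subunits Ndufs7 and Ndufa10 had differences of -0.66 ± 0.09 and -0.58 ± 0.09. Among glycolysis and hypoxia genes 15 of 35 were higher and 3 lower (42.9% and 8.57%, against 34.5% and 26.1% of all genes). Plin2, the coat of lipid droplets, had the largest increase in this list. Its construct values were 13.99, 14.20, 14.59 and 14.21 and its liver values 12.64, 12.38, 12.58 and 12.09 (log2 difference 1.83 ± 0.16, 3.56-fold, adjusted p = 1.32e-08). The glycolytic enzymes Aldoa, Eno1 and Gapdh had differences of 1.57 ± 0.10, 1.33 ± 0.15 and 0.71 ± 0.09.

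**Figure D3:**
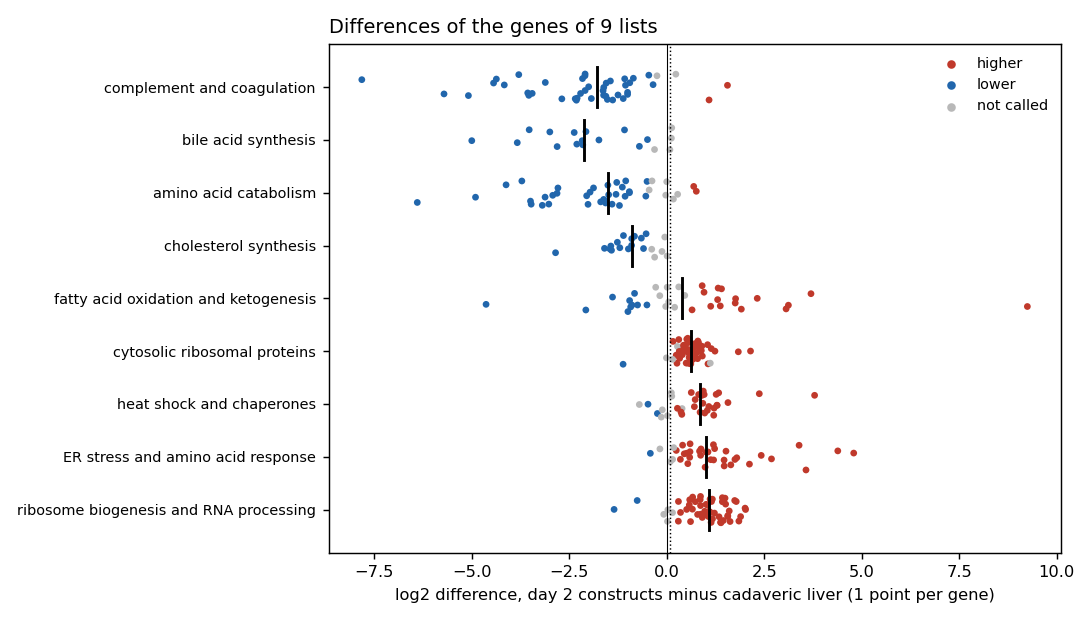
Log2 difference between day 2 constructs and cadaveric liver (x axis) for every tested gene of 9 lists, with 1 point per gene coloured by its call; points are spread vertically only to separate them, thick bars are list medians and the dotted line is the median of all genes (0.07). The 4 lists with the highest medians lie mostly to the right of zero, from 0.61 for ribosomal proteins to 1.07 for ribosome biogenesis, and the 4 at the top lie mostly to the left, down to -2.11 for bile acid synthesis.

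Among the 15 largest decreases, Hbb and Hbb-b1 belong to the red blood cell markers and Aif1 to the macrophage markers. In replicate order, Hbb measured 13.55, 13.79, 13.19 and 14.19 in livers and 4.77, 5.62, 4.62 and 5.26 in constructs. This beta globin of red blood cells was above background on 2 of 6 construct arrays, and its lowest liver value was far above its highest construct value (log2 difference -8.62 ± 0.21, 393-fold, adjusted p = 1.26e-15). Hba-a1, an alpha globin, was at 8.83, 5.59, 4.58 and 5.28 in the constructs, so that replicate 1 stood apart, and its difference of -8.13 ± 0.61 (4 of 6 construct arrays above background) became -9.05 without that construct. Hbb-b1, above background on 1 of 6 construct arrays, had a difference of -7.51 ± 0.17. Ahsp, the chaperone of alpha globin, had one of -1.46 ± 0.28. The summed level of the 6 red blood cell markers tested was 13800 to 26300 in the livers and 852 to 949 in the constructs, on the linear intensity scale.

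All 11 Kupffer cell and macrophage markers tested were lower, with a median log2 difference of -4.09, and 5 of them were not above background on any construct array. Their summed level was 10300 to 19400 in livers and 338 to 691 in constructs. Levels of Aif1 were 11.38, 10.70, 11.59 and 11.85 in livers and 4.78, 5.0, 4.72 and 4.65 in constructs. Aif1, a calcium binding protein of macrophages, was at least 81.7-fold lower (means 11.38 and 4.79, adjusted p = 4.07e-13). Constructs showed 5.42, 5.26, 5.02 and 5.04 for C1qa, against 10.98, 10.18, 10.98 and 11.34 in livers. C1qa, a chain of the complement component C1q that macrophages make, was detected on 5 of 6 construct arrays (log2 difference -5.68 ± 0.31, 51.4-fold, adjusted p = 2.76e-11). The scavenger receptors Cd163 and Marco were at least 8.34-fold and 10.9-fold lower (means 8.09 and 4.62, adjusted p = 1.50e-09 and means 8.48 and 4.58, adjusted p = 6.97e-10). The mannose receptor Mrc1 had a difference of -3.94 ± 0.24 (5 of 6 construct arrays above background). Fcna, a lectin known in mice as a macrophage product, and Ccl6, a chemokine of myeloid cells, were outside the marker list and at least 47.1-fold and 53.6-fold lower (means 10.58 and 4.61, adjusted p = 1.27e-14 and means 10.77 and 4.54, adjusted p = 4.10e-14).

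The macrophage genes that were still detected also differed among the constructs. Vsig4, a complement receptor of Kupffer cells, was at 6.78, 6.79, 4.86 and 5.16. C1qc was at 6.49, 6.18, 4.66 and 5.06 and C1qb at 7.10, 6.88, 5.56 and 6.01. Construct replicates 1 and 2 were above replicates 3 and 4 for each of these genes, as they were for the lysosomal protease Ctss (6.89, 6.49, 5.29 and 5.59) and for the collagen chain Col1a2 of stellate cells and fibroblasts (7.35, 7.30, 5.38 and 6.25). All 4 constructs remained below every liver for these genes. The same grouping held over all genes tested. Pearson's r was 0.995 between construct replicates 1 and 2 and between replicates 3 and 4. For the other pairs of constructs it was 0.990 to 0.992. Whether the constructs of such a pair share a donor or a preparation is not stated and was not tested. Without replicates 1 and 2 the share of all genes called higher was 31.7% and called lower 23.2%, and without replicates 3 and 4 the shares were 29.9% and 23.1%.

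Endothelial markers were lower in 11 of 11 cases, with a median of -3.12, and 8 were not above background on any construct array. The summed level was 5460 to 6690 in livers and 286 to 322 in constructs. Lyve1 was at 10.53, 10.56, 10.56 and 10.81 in the 4 livers and at 4.82, 5.40, 4.97 and 4.59 in the 4 constructs. Lyve1, the hyaluronan receptor of liver sinusoids, was above background on 1 of 6 construct arrays (log2 difference -5.67 ± 0.16, 50.9-fold, adjusted p = 5.73e-15). Oit3 and Emcn, both expressed by sinusoidal endothelium, were at least 37.6-fold and 28.6-fold lower (means 10.26 and 4.79, adjusted p = 3.94e-15 and means 9.86 and 4.69, adjusted p = 5.45e-15), and the Fc receptor Fcgr2b at least 13.6-fold (means 8.79 and 4.49, adjusted p = 7.60e-13).

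Of 15 stellate cell and fibroblast markers, 11 were lower and 1 higher, with a median of -2.19 and a summed level of 9440 to 14900 in livers against 2500 to 3340 in constructs. The proteoglycan Dcn was at least 13.5-fold lower (means 8.78 and 4.50, adjusted p = 1.24e-10), and the receptor Pdgfra at least 3.79-fold (means 6.95 and 4.76, adjusted p = 2.79e-08). Ecm1, at -5.47 ± 0.43, was one of the stellate genes detected on all construct arrays, and Sparc, at -5.93 ± 0.49, was detected on 2 of 6. The marker that was higher was Vim, an intermediate filament made by many cell types, at 0.67 ± 0.29 with an adjusted p of 0.0498. That call was lost without liver replicate 1, 2 or 3 or construct replicate 1, 3 or 4, where the log2 difference was 0.57 to 0.74 and the adjusted p 0.0544 to 0.125.

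**Figure D4:**
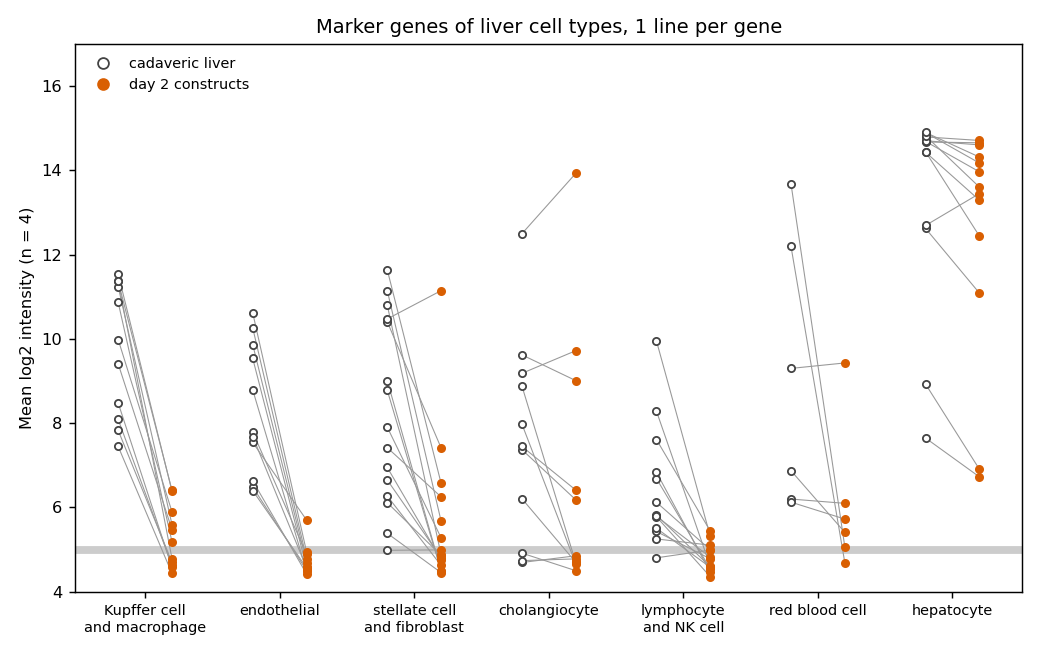
Mean log2 intensity (y axis) in 4 cadaveric livers (open points) and 4 day 2 constructs (filled points) for each tested marker gene of 7 cell types, with a line joining the values of a gene. The grey band spans the lowest detected signals of the arrays (4.92 to 5.05); macrophage and endothelial markers end in or near it, whereas 11 of 13 hepatocyte markers stay above 11.

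Lymphocyte and NK cell markers were lower in 11 of 13 genes (median -1.23), with a summed level of 1410 to 2570 in livers and 360 to 393 in constructs. The chemokine Ccl5 had a difference of -4.64 ± 0.22, and the granule proteases and proteins Gzma and Nkg7 were at least 9.58-fold and 3.5-fold lower (means 8.29 and 4.61, adjusted p = 9.02e-11 and means 6.84 and 4.46, adjusted p = 1.61e-10). Cholangiocyte markers were divided. Krt19, the keratin of bile ducts, was at least 7.75-fold lower (means 7.98 and 4.67, adjusted p = 4.94e-09) and the water channel Aqp1 at least 14.5-fold (means 8.89 and 4.70, adjusted p = 3.55e-05), while 7 of 11 markers were lower in all. In livers Krt8 stood at 12.39, 12.48, 12.37 and 12.74, and in constructs at 14.03, 13.82, 13.90 and 13.95. Krt8, a keratin that hepatocytes share with duct cells, was higher (log2 difference 1.43 ± 0.11, 2.7-fold, adjusted p = 3.42e-09), and so was Epcam (0.54 ± 0.17), so that the summed level of the list was 7730 to 9760 in livers and 16000 to 18500 in constructs. None of the 4 neutrophil markers tested was detected on every array of either group, and their summed level, 118 to 176 in livers and 114 to 126 in constructs, lay near background. S100a8, a calcium binding protein of neutrophils, was at least 1.69-fold lower (means 5.78 and 4.65, adjusted p = 0.00367). Ly6g6c, counted in this list although it is not the neutrophil antigen Ly6G, was higher with overlapping groups, at 0.57 ± 0.22 (1 of 4 liver arrays above background). That call was lost without liver replicate 2, 3 or 4 or construct replicate 2 or 4 (0.45 to 0.57).

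Genes of antigen presentation were divided, with 10 of 28 lower and 6 higher (35.7% and 21.4%, against 26.1% and 34.5% of all genes). In replicate order, RT1-Da measured 12.65, 11.17, 12.38 and 13.13 in livers and 4.77, 5.48, 4.64 and 4.76 in constructs. RT1-Da, a chain of the MHC class II molecule that macrophages and other presenting cells carry, was above background on 1 of 6 construct arrays (log2 difference -7.42 ± 0.34, 171-fold, adjusted p = 4.19e-12). Cd74, the invariant chain of class II, and RT1-Ba were at least 23.7-fold and 16.6-fold lower (means 9.59 and 4.61, adjusted p = 6.10e-11 and means 9.08 and 4.45, adjusted p = 4.38e-10), and RT1-DMb, which loads class II with peptide, had a difference of -4.38 ± 0.24 (5 of 6 construct arrays above background). Related MHC genes can share probe signal. Interferon response genes were lower in 17 of 32 cases and higher in 1 (Tapbp, not called without liver replicate 2, at 0.35; without liver replicate 3, 2 genes were higher), with Ifi47, an interferon-inducible GTPase, at -4.57 ± 0.33 and Ifitm1 at -3.53 ± 0.32.

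Levels of Cxcl12 were 12.65, 12.42, 12.56 and 12.50 in livers and 5.03, 5.63, 5.23 and 5.08 in constructs. Cxcl12, a chemokine made by endothelial and stromal cells, showed 4 close livers far above all constructs (log2 difference -7.29 ± 0.51, 157-fold, adjusted p = 8.69e-10, 5 of 6 construct arrays above background). Of 44 chemokines, cytokines and receptors, 19 were lower and 8 higher. Il1a, an interleukin 1, was at least 14.8-fold lower (means 8.92 and 4.49, adjusted p = 5.95e-15), and Il1b had a difference of -3.75 ± 0.20. In the extracellular matrix list 28 of 54 genes were lower and 6 higher. Sparcl1 and Col14a1, matrix proteins of stromal cells, had differences of -4.60 ± 0.13 and -5.79 ± 0.35, above background on 2 and 1 of 6 construct arrays, and Eln, elastin, was at least 4.61-fold lower (means 7.23 and 4.50, adjusted p = 2.49e-10). Lamc1, a laminin chain, and Fn1, fibronectin, were among those higher, at 3.29 ± 0.23 and 1.03 ± 0.13.

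The hepatocyte markers themselves changed less. Of 13 tested, 9 were lower and 1 higher, with a median of -0.72 and a summed level of 253000 to 261000 in livers and 166000 to 182000 in constructs. Constructs showed 14.68, 14.76, 14.61 and 14.79 for Alb, against 14.73, 14.80, 14.78 and 14.86 in livers. Albumin, the main plasma protein, overlapped between the groups and was not called, at -0.08 ± 0.07; the exact permutation p (2-sided) was 0.171, where 8 samples allow 0.0286 at the lowest. A separate albumin probe was lower, 14.53 ± 0.08 in livers and 14.08 ± 0.07 in constructs (SD, n = 4, log2 difference -0.45, exact permutation p = 0.0286). Transferrin (Tf, -0.02 ± 0.08) and alpha-1-antitrypsin (Serpina1, -0.10 ± 0.07) were not called. Tat, tyrosine aminotransferase, which glucocorticoids are known to induce, was the marker that was higher, at 0.76 ± 0.19. Probes this bright lie near the upper end of the scale, where differences are compressed.

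Rbp4 was at 9.04, 8.89, 8.94 and 8.84 in the 4 livers and at 7.17, 7.34, 6.45 and 6.67 in the 4 constructs. Rbp4, the plasma carrier of retinol, was the most reduced hepatocyte marker (log2 difference -2.02 ± 0.20, 4.06-fold, adjusted p = 7.87e-08). Complement and coagulation factors, most of them secreted by hepatocytes, were lower in 40 of 44 genes and higher in 2 (Plat and F3), with a median of -1.78. In livers A1bg stood at 14.83, 14.53, 14.49 and 14.26, and in constructs at 5.94, 7.37, 6.55 and 6.99. A1bg, a plasma glycoprotein counted in this list and in the list of sex-dependent genes, is not itself a complement or coagulation factor. It had the third largest decrease of all, although all construct arrays detected it (log2 difference -7.82 ± 0.70, 226-fold, adjusted p = 1.87e-08). Hrg, histidine-rich glycoprotein, and Klkb1, plasma prekallikrein, had differences of -3.45 ± 0.15 and -4.17 ± 0.17. Mbl1, a mannose-binding lectin of hepatocytes, had one of -3.79 ± 0.18, and Cfp, properdin, known mainly from leukocytes, one of -5.71 ± 0.16.

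Acute phase proteins diverged. Beside Lcn2 and A2m, 7 of 33 genes in all were higher, and 17 were lower, such as the inter-alpha-trypsin inhibitor chains Itih1 (-2.50 ± 0.15) and Itih4 (-1.99 ± 0.14) and the inhibitor Mug2 (-3.11 ± 0.21). Haptoglobin (Hp, 0.05) and hemopexin (Hpx, -0.10) were not called. Among apolipoproteins and lipoprotein assembly genes 11 of 16 were lower, with Apof at -4.26 ± 0.22, hepatic lipase Lipc at -2.63 ± 0.14, the cholesterol esterifying enzyme Lcat at -2.96 ± 0.18 and Apoc2, the cofactor of lipoprotein lipase, at -2.44 ± 0.17. Apoe, at -0.02, was not called.

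Bile acid synthesis had the lowest median of the 38 pathway lists, -2.11, with 14 of 18 genes lower. In replicate order, Cyp8b1 measured 13.06, 13.64, 13.13 and 13.47 in livers and 8.25, 8.33, 8.14 and 8.58 in constructs. Cyp8b1, the sterol 12-hydroxylase that sets the share of cholic acid, was separated widely (log2 difference -5.0 ± 0.24, 32-fold, adjusted p = 5.47e-12). Levels of Amacr were 13.88, 13.89, 13.86 and 13.97 in livers and 10.27, 10.38, 10.43 and 10.40 in constructs. Amacr, a racemase that prepares the side chain for shortening, also had tight groups far from each other (log2 difference -3.53 ± 0.08, 11.5-fold, adjusted p = 5.04e-16). Acox2, the oxidase of the same chain, and Nr1h4, the bile acid receptor FXR, had differences of -3.0 ± 0.18 and -2.31 ± 0.14. Cyp27a1, which opens the alternative pathway, was not called, at 0.13, but was higher under scaling to equal medians, at 0.36.

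Constructs showed 7.24, 7.18, 7.22 and 7.39 for Slco1b2, against 13.44, 13.32, 13.12 and 13.33 in livers. Slco1b2, an uptake carrier for organic anions on the blood side of hepatocytes, had tight groups that lay far apart (log2 difference -6.05 ± 0.18, 66-fold, adjusted p = 9.85e-15). Slc10a1 was at 14.24, 14.24, 14.16 and 14.25 in the 4 livers and at 10.57, 10.71, 10.06 and 11.06 in the 4 constructs. Ntcp, the sodium-dependent bile acid carrier encoded by this gene, was also lower (log2 difference -3.63 ± 0.16, 12.4-fold, adjusted p = 2.61e-12). Of 21 transporters 11 were lower and 4 higher (Abcb1b, Abcc3, Abcg2 and Slc10a2, the last not called without liver replicate 1 or 4 or construct replicate 1 or 2, at 0.33 to 0.40), and Abcc6, an efflux pump of hepatocytes, was at -2.97 ± 0.18. Cholesterol synthesis was lower in 15 of 20 genes, with a median of -0.90. The sterol reductase Tm7sf2 was at -2.85 ± 0.20, and Nsdhl, Ebp and Sc5d, which act late in the pathway, were at -1.46 ± 0.14, -1.42 ± 0.14 and -1.20 ± 0.12.

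Enzymes of amino acid breakdown were lower in 33 of 41 genes and higher in 2 (Tat and Hibch), with a median of -1.51. In livers Amdhd1 stood at 12.83, 12.36, 12.28 and 11.37, and in constructs at 5.72, 6.13, 5.67 and 5.74. Amdhd1 acts in histidine breakdown and was among the 15 largest decreases (log2 difference -6.40 ± 0.34, 84.2-fold, adjusted p = 2.46e-11). Prodh2, a hydroxyproline dehydrogenase, Gnmt, which methylates glycine, and Mccc1, of leucine breakdown, had differences of -3.48 ± 0.16, -3.02 ± 0.16 and -1.51 ± 0.07. In the urea cycle and nitrogen disposal, 11 of 12 genes were lower. In replicate order, Otc measured 13.30, 13.45, 13.49 and 13.30 in livers and 9.58, 10.68, 9.39 and 9.79 in constructs. Ornithine transcarbamylase was the most reduced of them (log2 difference -3.52 ± 0.24, 11.5-fold, adjusted p = 6.46e-10). Gls2, the liver glutaminase, was at -2.59 ± 0.09, Cps1, which opens the cycle, at -1.53 ± 0.19, and Glud1, glutamate dehydrogenase, at -1.14 ± 0.12. Arg1, arginase, was the gene of this list that was higher (0.40 ± 0.11); under scaling to equal medians, 6 of the genes were lower.

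Levels of Pck1 were 13.59, 13.91, 13.82 and 13.46 in livers and 8.66, 7.84, 8.70 and 8.73 in constructs. Pck1, the cytosolic enzyme that controls gluconeogenesis, was separated by more than 4 log2 units (log2 difference -5.21 ± 0.25, 37-fold, adjusted p = 5.58e-12). Constructs showed 9.48, 9.58, 9.27 and 9.36 for Pck2, against 6.80, 6.75, 7.11 and 7.07 in livers. Its mitochondrial counterpart Pck2 had the opposite direction (log2 difference 2.49 ± 0.13, 5.61-fold, adjusted p = 1.63e-11). Pc, pyruvate carboxylase, and Pygl, the glycogen phosphorylase of liver, had differences of -2.27 ± 0.18 and -2.13 ± 0.17. In the whole list of gluconeogenesis and glycogen genes, 12 of 20 were lower and 5 higher.

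Lipid genes did not share a direction. In fatty acid oxidation and ketogenesis 16 of 34 genes were higher and 10 lower (47.1% and 29.4%, against 34.5% and 26.1% of all genes). Beside Acot1, the mitochondrial thioesterase Acot2 was at 3.70 ± 0.20 and Pex11a, a peroxisome protein, at 3.12 ± 0.18. Bdh1 was at 11.57, 11.76, 11.61 and 11.76 in the 4 livers and at 6.76, 7.21, 7.29 and 6.91 in the 4 constructs. Bdh1, the dehydrogenase that forms beta-hydroxybutyrate, was lower (log2 difference -4.63 ± 0.15, 24.8-fold, adjusted p = 4.61e-14). In fatty acid and triglyceride synthesis 13 of 26 were lower and 6 higher, with the desaturase Fads2 at -3.23 ± 0.21, the elongase Elovl5 at -2.63 ± 0.17, Acsl5, an acyl-CoA synthetase, at -2.09 ± 0.10 and the lipid droplet protein Cidea at 3.55 ± 0.22.

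**Figure D5:**
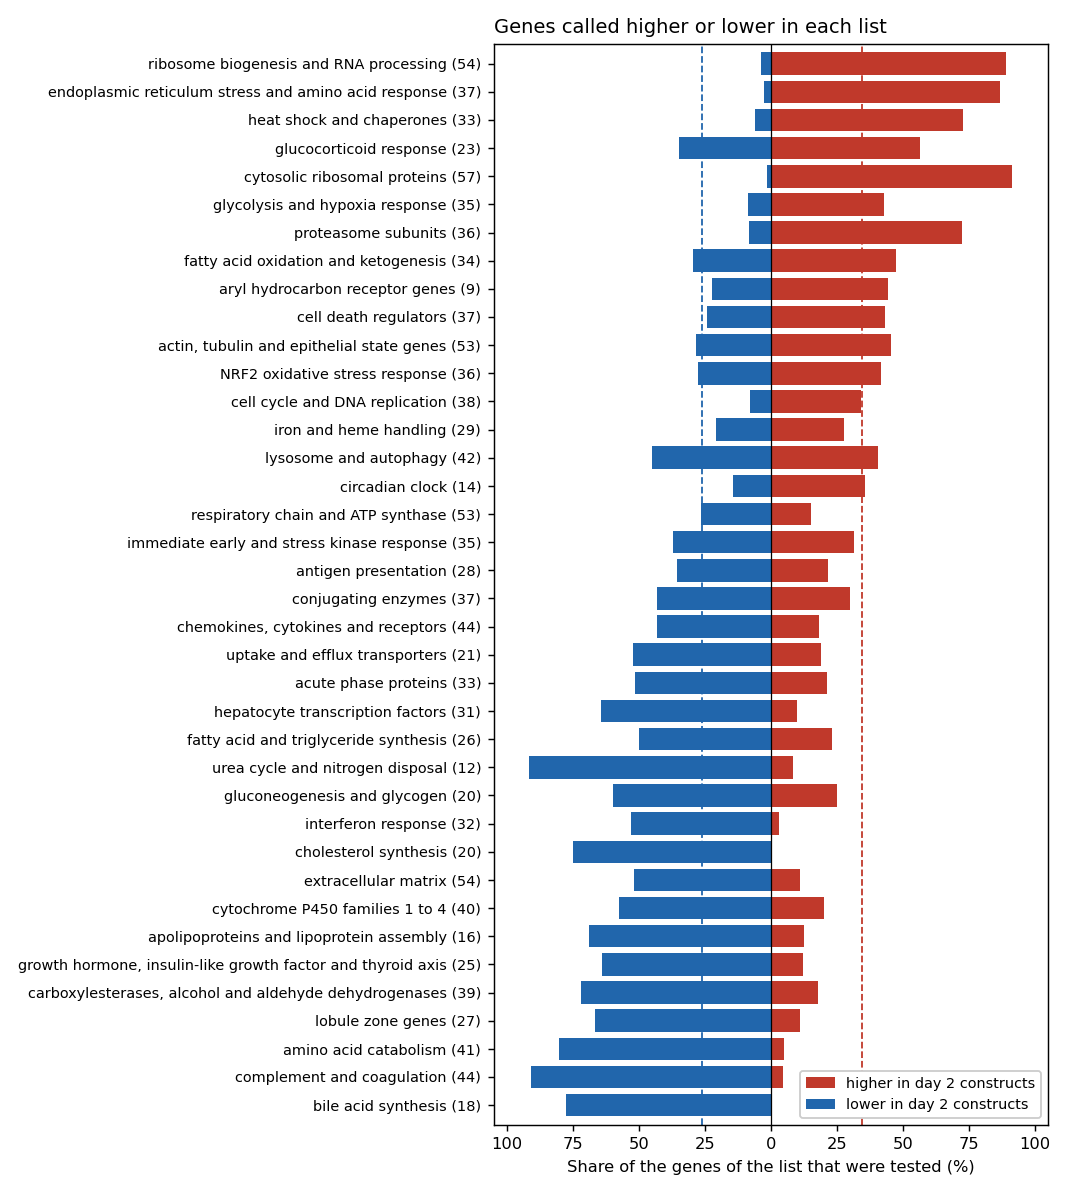
Share of tested genes called higher (right, red) and lower (left, blue) in each of 38 pathway lists, in percent, with the number of genes tested in brackets and the lists ordered by median log2 difference. Dashed lines mark the shares over all 8825 genes (34.5% higher, 26.1% lower); ribosome biogenesis stands at one end and bile acid synthesis at the other.

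Transcription factors and receptors of hepatocytes were lower in 20 of 31 genes and higher in 3 (Stat5b, Nr1i3 and Zhx2). In livers Cebpa stood at 10.36, 10.30, 9.59 and 9.83, and in constructs at 7.69, 8.06, 7.92 and 8.02. C/EBPα, a factor that maintains hepatocyte differentiation, was lower without overlap (log2 difference -2.10 ± 0.20, 4.28-fold, adjusted p = 4.46e-08). In replicate order, Hnf4a measured 7.62, 7.87, 7.41 and 7.69 in livers and 6.67, 7.06, 6.45 and 6.72 in constructs. Hnf4a, a nuclear receptor that controls many liver genes, differed by less (log2 difference -0.92 ± 0.17, 1.89-fold, adjusted p = 1.13e-04). The corepressor Nr0b2 (SHP) had a difference of -2.81 ± 0.24, and was above background on 3 of 6 construct arrays, and Tbx3 was at least 1.94-fold lower (means 5.98 and 4.67, adjusted p = 1.26e-08). Cebpb (-0.02) and Prox1 (0.01) were not called.

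In the axis of growth hormone, insulin-like growth factor and thyroid hormone, 16 of 25 genes were lower and 3 higher, or 5 without construct replicate 2. Igfals, the acid-labile subunit that holds IGF1 in plasma, was at 10.90, 10.55, 10.74 and 10.47 in livers and 4.49, 4.48, 4.50 and 4.48 in constructs, at least 49.7-fold lower (means 10.66 and 4.49, adjusted p = 7.20e-13). Its partner Igfbp3, made mainly by non-parenchymal cells, was at least 45.6-fold lower (means 10.54 and 4.67, adjusted p = 4.01e-10). The growth hormone receptor Ghr had a difference of -2.71 ± 0.17 and Hes6, a transcriptional regulator, one of -4.28 ± 0.16. Genes that glucocorticoids control were split, 13 higher and 8 lower of 23: Zbtb16 was at least 3.01-fold higher (means 4.66 and 6.59, adjusted p = 1.29e-07) and Pck1 was lower, in tissue kept in 1 µM dexamethasone. Of 14 clock genes tested, 5 were higher and 2 lower (35.7% and 14.3%, against 34.5% and 26.1% of all genes), with a median of 0. Without liver replicate 1, 2 or 4, 1 was lower. Cry1 (2.36 ± 0.19) and Per1 (1.57 ± 0.34) were among those higher, and Nr1d1, which represses the clock, was lower (-3.73 ± 0.44). No hour of sampling is given in the sources.

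Genes of the cytoskeleton and of epithelial state had members in both directions, 24 of 53 higher and 15 lower (45.3% and 28.3%, against 34.5% and 26.1% of all genes). Levels of S100a11 were 9.29, 9.39, 9.93 and 10.06 in livers and 13.48, 13.39, 13.59 and 13.68 in constructs. S100a11, a calcium binding partner of annexins, was separated by more than 3 log2 units (log2 difference 3.87 ± 0.17, 14.6-fold, adjusted p = 2.59e-12). Constructs showed 11.13, 11.06, 11.35 and 11.31 for Anxa2, against 7.05, 7.39, 7.66 and 7.84 in livers. Annexin A2, which links membranes to actin, behaved alike (log2 difference 3.73 ± 0.15, 13.2-fold, adjusted p = 1.03e-12). Both had lower means in freshly isolated liver cells, 4.58 ± 0.23 for S100a11 and 5.04 ± 0.30 for Anxa2, than in liver. Tubb6, a beta tubulin, and Tpm1, tropomyosin, had differences of 3.16 ± 0.19 and 2.43 ± 0.14.

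Ccn2 was at 9.38, 9.08, 9.81 and 9.64 in the 4 livers and at 13.58, 13.44, 13.79 and 13.96 in the 4 constructs. Ccn2, a matricellular protein and target of the YAP and TGF-β pathways, was the most increased gene of the immediate early list (log2 difference 4.21 ± 0.18, 18.5-fold, adjusted p = 1.39e-12). In that list 11 of 35 genes were higher and 13 lower (31.4% and 37.1%, against 34.5% and 26.1% of all genes), around a median of -0.08 that was 0.10 under scaling to equal medians. The GTPase Rhob was at 2.97 ± 0.24, the phosphatase Dusp10 at least 3.06-fold higher (means 4.60 and 6.61, adjusted p = 5.56e-12) and Klf2, a flow-responsive factor of endothelium, at -2.91 ± 0.23, above background on 1 of 6 construct arrays.

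In livers Cdkn1a stood at 4.38, 4.67, 4.70 and 4.65, and in constructs at 7.47, 7.85, 7.64 and 7.32. The inhibitor p21 was at least 5.96-fold higher (means 4.60 and 7.57, adjusted p = 3.86e-07). Together with p21, Ccng1 and Mdm2 are known targets of p53, and their differences were 2.51 ± 0.17 and 1.66 ± 0.13. Of 38 genes of the cell cycle and DNA replication, 13 were higher (34.2%, against 34.5% of all genes) and 3 lower, and Gmnn, the inhibitor of replication licensing, was at 1.66 ± 0.15. Among cell death regulators 16 of 37 were higher and 9 lower (43.2% and 24.3%, against 34.5% and 26.1% of all genes), with Bmf, which promotes apoptosis, at least 8.64-fold lower (means 8.14 and 4.71, adjusted p = 1.39e-11), Bcl2a1, a survival protein of leukocytes, at least 8.47-fold lower (means 8.11 and 4.56, adjusted p = 8.11e-09) and Bcl2l1, the survival protein Bcl-xL, at 1.93 ± 0.16 (3 of 4 liver arrays above background). A dimmer probe of Bcl2l1 gave 0.04 and was not called.

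Lysosome and autophagy genes were divided, 17 higher and 19 lower of 42 (40.5% and 45.2%, against 34.5% and 26.1% of all genes). The lysosomal membrane protein Scarb2 was at 3.27 ± 0.16 and the mannosidase Man2b1 at -1.76 ± 0.11. Of 29 genes of iron and heme handling, 8 were higher and 6 lower (27.6% and 20.7%, against 34.5% and 26.1% of all genes). Under scaling to equal medians 14 were higher and 5 lower. The transferrin receptor Tfrc was at 2.40 ± 0.21 (1 of 4 liver arrays above background) and its liver homologue Tfr2 at -1.78 ± 0.15, while Alad, of heme synthesis, was at -2.33 ± 0.15. In the NRF2 response to oxidants 15 of 36 were higher and 10 lower, shares of 41.7% and 27.8% that lie near the 34.5% and 26.1% of all genes. The glutathione peroxidase Gpx2, of this list, was at 2.50 ± 0.20 (3 of 4 liver arrays above background).

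Enzymes of drug and hormone metabolism outside the P450 family differed between lists. Of 39 carboxylesterases, alcohol and aldehyde dehydrogenases and related enzymes, 28 were lower and 7 higher. In replicate order, Hsd17b2 measured 14.21, 14.28, 12.91 and 14.16 in livers and 7.18, 7.26, 6.79 and 7.14 in constructs. Hsd17b2, which inactivates estradiol and testosterone, had 3 close livers and a lower replicate 3, all far above the constructs (log2 difference -6.80 ± 0.31, 111-fold, adjusted p = 3.70e-12). Levels of Fmo1 were 10.64, 11.34, 10.97 and 10.19 in livers and 4.54, 4.78, 4.49 and 4.86 in constructs. Fmo1, a flavin monooxygenase, was at least 54-fold lower (means 10.78 and 4.67, adjusted p = 2.99e-15). Rgn, the lactonase of ascorbate synthesis in rats, and Aox3, an aldehyde oxidase, had differences of -6.65 ± 0.21 and -5.54 ± 0.17 (2 of 6 construct arrays above background). Of 37 conjugating enzymes 16 were lower and 11 higher (43.2% and 29.7%, against 26.1% and 34.5% of all genes). Under scaling to equal medians 12 were lower and 12 higher. The sulfotransferase Sult1c2 was at -4.52 ± 0.19, detected on 3 of 6 construct arrays, and the glutathione transferase Gstm5 at 2.21 ± 0.14.

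The P450 genes of families 1 to 4 were lower in 23 of 40 cases and higher in 8, with a median of -0.98. Constructs showed 9.97, 10.11, 9.30 and 9.97 for Cyp2b3, against 13.53, 13.40, 13.58 and 13.61 in livers. Cyp2b3 had the lowest adjusted p of the family (log2 difference -3.69 ± 0.19, 12.9-fold, adjusted p = 1.45e-11). Cyp4f6 and Cyp4f1, which hydroxylate fatty acids and eicosanoids, were at -2.17 ± 0.13 and -2.91 ± 0.17, and Cyp4a2, a fatty acid hydroxylase under PPARα, was higher at 1.89 ± 0.20. Cyp1a2 and Cyp1a1, both induced through the aryl hydrocarbon receptor, differed in opposite directions, at -5.26 ± 0.32 and 5.09 ± 0.39 (1 of 4 liver arrays above background). Related P450 genes may share probe signal.

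Some of these genes depend on sex in rats. Cyp2c12, known as female-specific, was between 14.65 and 14.80 in livers and between 13.94 and 14.67 in constructs, whereas Cyp2c11, known as male-specific, was above background on 2 of 4 liver arrays and on no construct array. The call of Cyp2c12 (-0.44 ± 0.18, adjusted p = 0.0463) was lost without any single liver, without construct replicate 1 and without construct replicate 3, with differences of -0.47 to -0.31. Prlr, the prolactin receptor, higher in female rats, had a difference of -4.30 ± 0.41. Car3, a carbonic anhydrase known to be higher in male rats, was at 12.12, 12.32, 12.57 and 10.31 in livers and 8.96, 8.70, 6.78 and 7.33 in constructs, so that liver replicate 4 and construct replicates 3 and 4 were the lower ones of their groups.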

How the data were processed

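RNA of 4 cadaveric livers and 4 day 2 constructs was hybridized to RatRef-12 BeadChips. For each of 23365 probes the authors deposited a bead intensity and a detection p-value, and log2 values made with limma's neqc (background correction, offset, quantile normalization); its version was not found in the sources. The log2 values were tested and the intensities and detection p-values used for filters and alternatives. A further deposited table, with 48 columns named for no sample, was not used. On 14 of 24 arrays the intensity table and the sample records number the replicates of a group differently. Numbers are those of the records. The averaging of duplicates, the replicate block and the results without single samples depend on them, and the other numbering was not tried. Technical duplicate arrays of 2 constructs were averaged (r 0.9963 and 0.9969).

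Kept were probes with 1 gene name that at least 3 of 19 samples detected (p-value under 0.05), and the brightest stood for its gene. In R 4.3.3 with limma 3.58.1, 1 linear model was fitted to all 5 groups, with Benjamini-Hochberg adjustment over 8825 genes and a threshold of 0.05; errors of log2 differences are standard errors. A gene that no array of a group detected has a lower bound of its fold ("at least"), against the lowest detected signal of each array, so both group means are given beside it. Genes near background or near the top of the scale have compressed differences, and the number of samples limits the precision. The model was tested on simulated data.

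The comparison and its 47 gene lists were chosen with earlier results of these data known. Genes named are the 15 largest increases and decreases without overlap and outside the P450 family, the 4 lowest adjusted p-values of each list, marker and sex-dependent genes, Alb, Cyp1a2, Hnf4a and Cebpa; genes not called are given as values, and 1 of the increases is not reported here. Others, such as the genes with promoters shown, those named because few of a list were called in a direction, and the genes set beside isolated cells, were chosen after their values were seen. Alternatives were the normalization, filters, probe choice, samples fitted, replicate block, array weights, prior and each sample left out.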

Additional observations from a re-analysis of the deposited data

Results flagged for a closer look

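For the 219 genes named, each group of 4 samples was searched for a sample far from the other 3, by Dixon's criterion for the gap to the nearest sample against the whole range. Of 438 groups, 22 (5.02%) held such a sample, where chance gives about 1 in 20, and no cause was tested. Acsl5 in liver replicate 4 was at 11.96, with the other livers at 12.18 to 12.22. Amdhd1 in construct replicate 2 was at 6.13, with the other constructs at 5.67 to 5.74. Apoe in construct replicate 3 was at 14.58, with the other constructs at 14.69 to 14.72. Ccl5 in liver replicate 2 was at 9.17, with the other livers at 10.17 to 10.24. Ccl6 in liver replicate 2 was at 10.03, with the other livers at 10.95 to 11.08. Cd74 in construct replicate 4 was at 4.82, with the other constructs at 4.52 to 4.56. Cdkn1a in liver replicate 1 was at 4.38, with the other livers at 4.65 to 4.70. Cebpb in liver replicate 3 was at 12.39, with the other livers at 12.68 to 12.74. Dcn in construct replicate 2 was at 4.69, with the other constructs at 4.41 to 4.45. Epcam in construct replicate 2 was at 9.49, with the other constructs at 9.78 to 9.81. Gapdh in liver replicate 1 was at 12.31, with the other livers at 12.50 to 12.53. Ghr in construct replicate 2 was at 6.44, with the other constructs at 6.83 to 6.85. Gls2 in construct replicate 2 was at 8.47, with the other constructs at 8.63 to 8.66. Glud1 in construct replicate 4 was at 12.17, with the other constructs at 11.74 to 11.81. Hsd17b2 in liver replicate 3 was at 12.91, with the other livers at 14.16 to 14.28. Lyve1 in liver replicate 4 was at 10.81, with the other livers at 10.53 to 10.56. Mbl1 in construct replicate 3 was at 5.57, with the other constructs at 6.09 to 6.16. Pbsn in construct replicate 1 was at 9.98, with the other constructs at 8.49 to 8.71. Pck1 in construct replicate 2 was at 7.84, with the other constructs at 8.66 to 8.73. RT1-Da in construct replicate 2 was at 5.48, with the other constructs at 4.64 to 4.77. Slc10a1 in liver replicate 3 was at 14.16, with the other livers at 14.24 to 14.25. Srsf3 in liver replicate 3 was at 6.45, with the other livers at 6.96 to 6.97.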

How the results depend on the processing

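With arrays scaled to equal medians in place of quantile normalization, 1631 genes were at least 2-fold higher, against 945, and 4041 genes were higher and 1632 lower, against 3043 and 2301; the cause was not tested. In that setting the albumin difference was -0.14 and, as deposited but with its other probe, -0.45 (exact permutation p = 0.0286 in both, against -0.08 and 0.171). Under scaling to equal medians the list medians of the respiratory chain and of immediate early genes became 0.16 and 0.10, Psmd9 was at 0.01, 3 genes of bile acid synthesis and 1 of cholesterol synthesis were higher, and 12 lysosome and autophagy genes and 6 of the urea cycle list were lower, against 19 and 11. Leaving out single samples gave 2846 to 2948 genes higher, 2186 to 2244 lower, 911 to 983 at least 2-fold higher, 1123 to 1151 at least 2-fold lower, 868 to 892 list members called (against 905) and an albumin difference of -0.11 to -0.05 (p = 0.0857 to 0.343, exact permutation). Apart from those named, the counts over all genes stayed within 1.5 times the values in the report under each alternative, including without construct replicates 1 and 2 or 3 and 4, which was chosen after the data were seen; small counts of list members moved by more. Same-numbered samples did not deviate together (correlations of -0.12 to -0.07). What the replicate numbers stand for is not stated, so this check cannot tell whether a liver and a construct share a donor. With a replicate block, 35.3% of 7966 genes were higher and 27.5% lower. Of 4370 values of the 219 genes named, over all alternatives, 68 (13 genes) lost their call, 6 (5 genes) gained one and 1, of a called gene, changed sign. For genes not called, a change of sign without a call was not counted. A gene at background on every array of a group could have fallen further than its bound, and a bright gene may have changed by more than its log2 difference shows.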

Other observations

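The freshly isolated liver cells, not stated to come from the donors of these constructs, give a point between liver and day 2, described here without a test and with genes chosen after their values were seen. Igfals, the acid-labile subunit, was 10.80 ± 0.07 in isolated cells (mean ± SD of log2 intensity, n = 4), 10.66 ± 0.19 in liver and 4.49 ± 0.01 in the constructs. Slco1b2, the organic anion carrier, was 13.14 ± 0.17, 13.30 ± 0.13 and 7.26 ± 0.09 in the same order, and Pck1, of gluconeogenesis, was 14.30 ± 0.05, 13.69 ± 0.21 and 8.48 ± 0.43. For amino acid catabolism the median difference was 0.17 between isolated cells and liver and -1.51 between constructs and liver, and for complement and coagulation these medians were -0.03 and -1.78. Over all genes tested the medians were 0.04 and 0.07.

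Most macrophage and endothelial markers stood in between. Aif1 was 8.72 ± 0.34 in isolated cells, 11.38 ± 0.49 in liver and 4.79 ± 0.15 in the constructs, and Lyve1 was 8.77 ± 0.32, 10.62 ± 0.13 and 4.95 ± 0.34. All 11 Kupffer cell and macrophage markers tested, and 10 of 11 endothelial markers, had their mean in isolated cells between the other means. The immediate early genes Fos and Egr1 were highest in isolated cells. Fos was 11.09 ± 0.86 there, 6.31 ± 1.02 in liver and 4.54 ± 0.10 in the constructs, and Egr1 was 13.13 ± 0.45, 8.73 ± 0.89 and 7.51 ± 0.21. The stress factor Atf3 was 11.20 ± 0.60, 5.80 ± 0.56 and 8.19 ± 0.06, thus also above liver on day 2. Acot1 and Nefl, by contrast, were as dim in isolated cells (4.41 ± 0.10 and 4.41 ± 0.09) as in liver. Since the isolated cells and the constructs are both set against the same livers, their differences from liver are not independent.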
